A study of Bos taurus with 10 samples.

Results

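The udder of the healthy lactating cow was described from the 5 healthy animals of a series of 10 arrays, with no comparison to the other group. The members were the 5 arrays titled as healthy udder at 24 h, and on these arrays 9155 genes with a single gene name were ranked by their mean log2 signal. The animals were primiparous German Holstein Frisian cows in the middle of lactation, and none of their udder glands was inoculated. Their oestrus had been synchronised with cloprostenol, they were milked out with the help of oxytocin, and they were killed at 24 h of the trial. Per the study's description, tissue was cut from deep in the gland, and for some of these cows the tissue of a pair of glands was pooled while for others a single gland was used. Titles and sample descriptions named these cows as healthy, whereas their source field named neighboring tissue, and the titles were followed here. The RNA was labelled and hybridised to the Affymetrix GeneChip Bovine Genome Array, a short-oligonucleotide array that reads each transcript with a group of probes called a probe set.

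The lactating gland is built of alveoli, in which an inner layer of luminal epithelial cells makes milk and an outer layer of contractile myoepithelial cells ejects it. Luminal cells secrete the caseins and whey proteins through the endoplasmic reticulum and Golgi apparatus, make lactose inside the Golgi, and release fat as droplets wrapped in plasma membrane. Fibroblasts, fat cells, vessels and resident immune cells lie between the alveoli. Because whole tissue was measured, fewer cells of a type and less RNA per cell cannot be told apart.

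Levels are given on the log2 scale of RMA (robust multi-array average, which corrects background, equalises the arrays and summarises each probe set), as the mean ± SD over the 5 animals (n = 5). Where a gene had several probe sets, the brightest was taken. A rank orders signal and not the number of transcript molecules, since probe sets differ in how strongly they bind, and for the same reason no level of a gene was tested against that of another. Array medians lay between 6.26 and 6.28, no pair of arrays held identical values, and no value was missing. The brightest gene on any array reached 14.79, and the median over all gene means was 7.30. The spread between animals was small for most genes, with a median SD of 0.17. Each animal was read on a single array here, so differences between animals and between tissue pieces, labellings or hybridizations cannot be told apart. Spread between animals or cows below means spread between their arrays. As a limit for background, the 95th percentile of 69 genes of other organs (lens, retina, testis, pancreas, pituitary and the like) was taken, which came to 8.23. Of the 9155 genes, 2810 (30.7%) lay above it. The limit is strict, since it lies above the median of 7.30, so a gene below it need not be absent. With the 90th percentile as the limit, 5644 genes lay above it. Which genes of middle level count as above or below background therefore depends on this choice.

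Healthy replicate 3, which the study had set aside as a technical outlier, stood apart on many genes. The main results that rest on it are given with and without it. Unless stated otherwise, SDs and the most variable gene of a list are over all 5 arrays and can rest on healthy replicate 3. It was the array farthest from the median of the 5 in 32.1% of genes, against 13.9% to 22% for the other 4 arrays. Across genes, its values correlated with those of the other arrays at r = 0.975 to 0.979, while the other 4 correlated among themselves at 0.988 to 0.99 (over 9155 genes, which are not independent). The rank as farthest array depends on the scale: with the arrays set to equal hybridization controls instead, healthy replicate 4 was the farthest in 31.3% and healthy replicate 3 in 21.4%. On that scale the median difference of all genes from the other 4 arrays was 0.28 on healthy replicate 4, -0.20 on healthy replicate 1 and -0.12 on healthy replicate 5. On the RMA scale the same differences were -0.04, 0.003 and 0.022. Differences between animals below are on the RMA scale.

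The 30 brightest genes were led by milk proteins. Genes of the lists of caseins and whey proteins, milk fat globule membrane and fat synthesis made up 18 of them, and cytosolic ribosomal proteins another 6. Beta-casein, CSN2, ranked 1 at 14.70 ± 0.08, with 14.65, 14.73, 14.79, 14.60 and 14.73 on healthy replicates 1 to 5. Beta-lactoglobulin, PAEP, followed at 14.67 ± 0.04, with 14.63, 14.64, 14.72, 14.69 and 14.68. Their ranges overlapped, so the order of these genes did not exceed the spread between animals. Kappa-casein, CSN3, which coats the casein micelle, stood at 14.55 ± 0.02, with 14.57, 14.53, 14.52, 14.58 and 14.54, and lay below PAEP on all 5 arrays with no overlap. An alpha casein, CSN1S2, was at 14.39 ± 0.04, with 14.36, 14.35, 14.43, 14.42 and 14.37, and again did not overlap with CSN3.

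LALBA, the regulatory subunit of lactose synthase, stood at 14.38 ± 0.03 with 14.38, 14.37, 14.39, 14.35 and 14.42. GLYCAM1, a mucin-like whey protein of ruminant milk, stood at 14.32 ± 0.05 with 14.39, 14.29, 14.26, 14.32 and 14.31. CSN1S2, LALBA and GLYCAM1 formed a group in which each gene's range overlapped that of its neighbour. A step followed, since every value of GLYCAM1 lay above every value of rank 7, FABP3, a fatty acid carrier of the milk fat globule, at 13.65 ± 0.07 with 13.71, 13.67, 13.55, 13.61 and 13.72. Among the 29 neighbouring pairs of the 30 brightest genes, only 3 had ranges that did not overlap, namely PAEP over CSN3, CSN3 over CSN1S2 and GLYCAM1 over FABP3. From FABP3 downwards the order was therefore within the spread from each gene to the next.

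**Figure D1:**
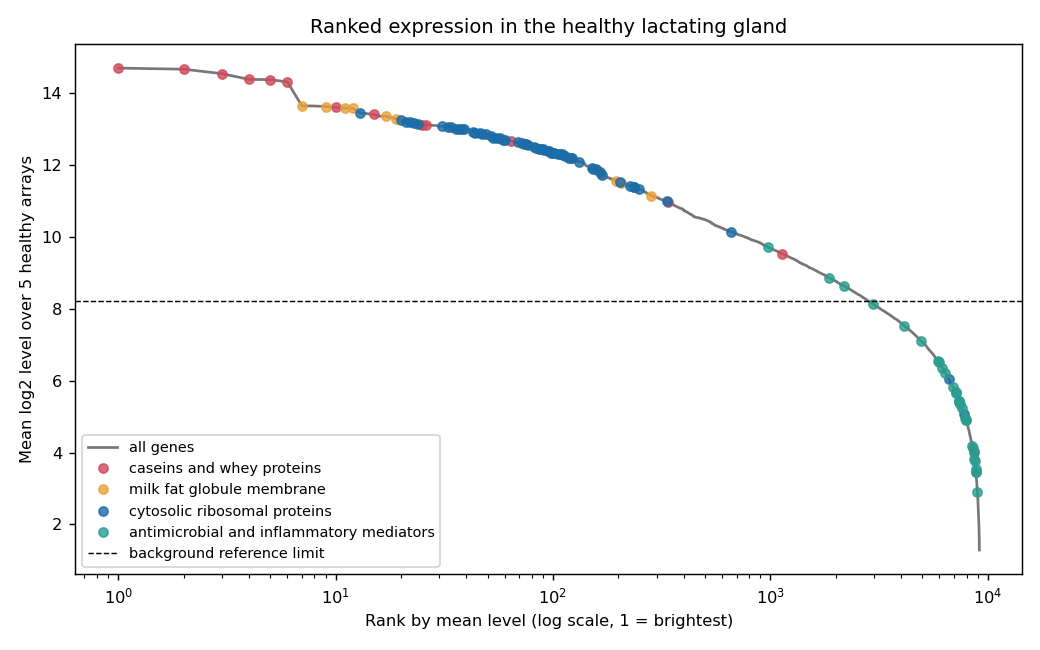
Mean log2 level over the 5 healthy arrays (vertical axis) against rank on a log axis (horizontal axis), for all 9155 genes as a grey line with 4 gene lists as coloured points. The 6 brightest genes sit between 14.32 and 14.70 on a plateau above the rest, ribosomal proteins crowd the next steps, and most antimicrobial and inflammatory genes lie under the dashed background limit of 8.23.

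The caseins and whey proteins were the brightest of all lists. Of 14 members measured, 11 were in the top 1% (a cut that takes 0.994% of all genes), and the median member was at 13.51. The remaining casein, CSN1S1, ranked 10 at 13.61 ± 0.06, with 13.64, 13.56, 13.55, 13.70 and 13.58. Osteopontin, SPP1, a calcium-binding phosphoprotein of milk, was at 13.41 ± 0.23 with 13.55, 13.27, 13.68, 13.46 and 13.10, lowest on healthy replicate 5. B2M, the light chain of MHC class I, was at 13.13 ± 0.16. Albumin, ALB, a blood protein that also enters milk, was at 9.52 ± 0.13 and rank 1137. The least bright member was TF, the iron carrier transferrin, at 4.0 ± 0.31 and rank 8604, below the background limit.

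Lactoferrin and lactoperoxidase, antibacterial proteins of milk, varied more from cow to cow than the caseins. Lactoferrin, LTF, which binds iron, was at 13.12 ± 0.65 with 13.11, 13.79, 13.68, 12.20 and 12.82, a 3-fold range from healthy replicate 4 to healthy replicate 2, and it was the only one of these 14 genes with an SD over 0.5 (among all genes, 489, or 5.34%, had such an SD). This did not come from healthy replicate 3, since the SD over the other 4 animals was 0.66. Without that array LTF moved from rank 26 to 45. Lactoperoxidase, LPO, was at 12.68 ± 0.28 with 12.22, 12.88, 12.93, 12.64 and 12.75, lowest on healthy replicate 1. Cystatin C, CST3, an inhibitor of cysteine proteases, was at 10.97 ± 0.45, with 10.20 on healthy replicate 3 and 11.02 to 11.34 on the others. Its SD without healthy replicate 3 was 0.16. Among the 6 brightest genes, from CSN2 to GLYCAM1, SDs ran from 0.02 to 0.08, and all their values lay between 14.26 and 14.79, the highest stretch of the scale. Whether the small spread reflects signal close to the upper end of the array was not tested.

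**Figure D2:**
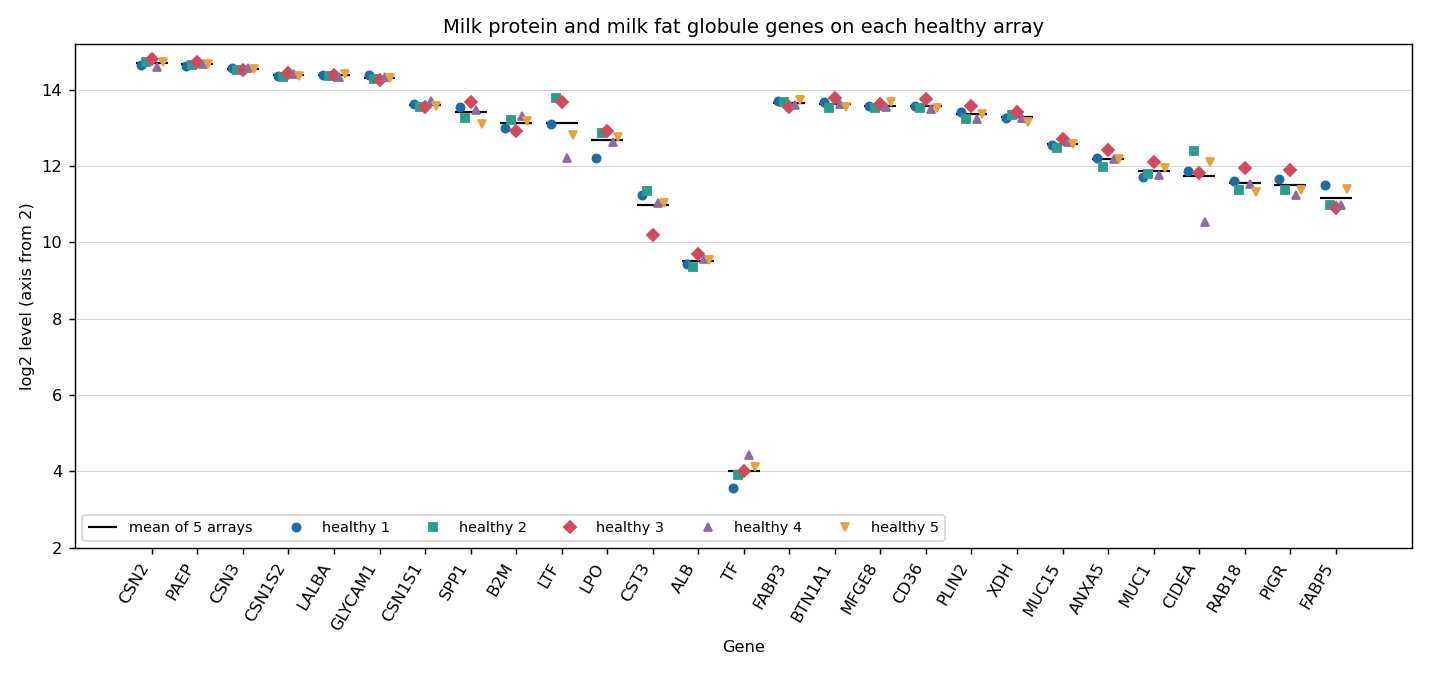
log2 level (vertical axis, starting at 2) of the 14 casein and whey protein genes and the 13 milk fat globule membrane genes (horizontal axis, by rank within each list) on each of the 5 healthy arrays, with the mean as a bar. Points of the brightest genes lie on top of each other, whereas LTF spreads from 12.20 to 13.79 and CIDEA reads 10.54 on healthy replicate 4.

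The coat and contents of the milk fat globule were nearly as bright. All 13 measured members were in the top 5% (4.99% of all genes), 7 of them in the top 1%, and the median was 12.59. Butyrophilin, BTN1A1, the chief membrane protein of the globule, was at 13.63 ± 0.10 with 13.67, 13.53, 13.77, 13.63 and 13.56. Lactadherin, MFGE8, which binds phosphatidylserine, was at 13.59 ± 0.07, and the fatty acid translocase CD36 at 13.58 ± 0.10. Neither differed from BTN1A1 beyond the spread between animals. The droplet coat protein PLIN2 was at 13.36 ± 0.14 and xanthine dehydrogenase, XDH, which works with butyrophilin in droplet release, at 13.29 ± 0.10. The dimmest member, FABP5, was still at 11.15 ± 0.28 and rank 283.

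CIDEA, which promotes growth of lipid droplets, had the largest spread of the globule genes, at 11.75 ± 0.71. Its values were 11.86, 12.41, 11.82, 10.54 and 12.11, with healthy replicate 4 below the other 4 animals. The fold from lowest to highest cow was 3.65, the largest of this list.

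Enzymes of fat synthesis spanned a wide range of levels. Of 30 measured genes, 7 were in the top 1% and 12 in the top 10% (9.99% of all genes). The background limit was passed by 18 (against 30.7% of all genes), and 12 were not above it. The desaturase SCD, which makes oleic acid, was at 13.43 ± 0.14 with 13.40, 13.36, 13.67, 13.36 and 13.37, highest on healthy replicate 3, where it stood apart from 13.36 to 13.40 on the others. Fatty acid synthase, FASN, was at 13.32 ± 0.08 with 13.27, 13.28, 13.46, 13.26 and 13.33. Lipoprotein lipase, LPL, which frees fatty acids from blood lipoproteins, was at 13.07 ± 0.14, and GPAM, which starts glycerolipid synthesis, at 12.84 ± 0.15. Genes that supply acetyl groups and reducing power differed in level. ACSS2, the cytosolic acetyl-CoA synthetase, was at 12.70 ± 0.30 and IDH1, the cytosolic isocitrate dehydrogenase, at 12.70 ± 0.19, whereas ME1, the NADPH-making malic enzyme, was at 7.41 ± 0.25, below the background limit. ACLY, which makes acetyl-CoA from citrate, was at 8.82 ± 0.24 and rank 1932. ACACA, the step before FASN, was at 9.41 ± 0.26 and rank 1259.

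The least bright gene of fat synthesis was ELOVL6, a fatty acid elongase, at 4.02 ± 0.70, which also had the largest SD of the list at that low level. The last step of triglyceride synthesis was represented by DGAT1 at 8.39 ± 0.30 and DGAT2 at 4.91 ± 0.19. The regulators differed, with SREBF1 at 10.47 ± 0.10, INSIG1 at 10.51 ± 0.32, PPARG at 7.30 ± 0.30 and THRSP at 6.14 ± 0.37, the latter pair below the background limit.

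Cholesterol synthesis was at a middle level, with a median of 8.91 over 14 genes. MSMO1 (11.47 ± 0.25), HMGCS1 (10.40 ± 0.43), SQLE (9.91 ± 0.33) and CYP51A1 (9.65 ± 0.28) were its brightest genes and LSS (6.89 ± 0.23) its dimmest. Healthy replicate 1 was the lowest array in 11 of the 14 (against 19.5% of all genes) and healthy replicate 3 the highest in 8 (healthy replicate 3 was the highest in 30.7% of all genes). HMGCS1 read 10.02, 10.50, 11.07, 10.04 and 10.39 on replicates 1 to 5, and SQLE read 9.57, 9.70, 10.37, 9.76 and 10.14.

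For lactose, the partner of LALBA in lactose synthase, B4GALT1, was at 12.82 ± 0.18 with 12.69, 12.66, 13.08, 12.72 and 12.93. UGP2, which makes UDP-glucose, was at 12.30 ± 0.31. The glucose transporter SLC2A1, through which the gland takes up glucose, was at 10.11 ± 0.16 and rank 686, SLC35A2, which carries UDP-galactose into the Golgi, at 8.82 ± 0.16, and SLC2A3 at 5.13 ± 0.12, below background. Glycolysis had a median of 9.75, with LDHB (11.90 ± 0.33), ALDOA (11.44 ± 0.17), ENO1 (11.14 ± 0.21) and GAPDH (10.95 ± 0.15) at the top. PFKP (6.84 ± 0.29) was the dimmest glycolytic gene and GPI (9.55 ± 0.42) the most variable.

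Transporters spanned a wide range of levels. Of 11 amino acid transporters, SLC38A2 (11.54 ± 0.17) and SLC7A5 (10.15 ± 0.41) were the brightest and SLC6A14 (3.73 ± 0.19) the dimmest. Above background were 6 of the 11 (against 30.7% of all genes). SLC7A5, the light chain of a leucine carrier, read 10.02, 9.87, 10.45, 9.71 and 10.69, highest on healthy replicate 5. Among 22 genes of ion and water transport, the metal carrier SLC39A8 was at 12.28 ± 0.22, and PTHLH, the calcium-mobilising hormone that the lactating gland makes, at 11.47 ± 0.21. The calcium channel ORAI1 was at 10.26 ± 0.14 and the calcium pump ATP2A2 at 10.15 ± 0.09, whereas ATP2B2, known as the pump that moves calcium into milk in rodents, was at 3.48 ± 0.13 and rank 8817. The zinc carrier of secretory vesicles, SLC30A2, was the most variable of this list, with 8.85, 7.05, 8.62, 7.01 and 7.15, and healthy replicates 1 and 3 did not overlap with the other 3. ABCG2, which pumps riboflavin and urate into milk, ranked 40 at 13.00 ± 0.14.

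Regulators of lactation differed in level. Of 11 transcription factors 6 were above background, and of 16 hormone receptors and signalling genes 4 were (against 30.7% of all genes). The transcription factor ELF5, which drives alveolar differentiation, was the brightest at rank 16 and 13.36 ± 0.15, with 13.47, 13.16, 13.54, 13.32 and 13.32. The next factors were NFIB (10.55 ± 0.27), YY1 (10.45 ± 0.13) and NFIA (9.18 ± 0.18), and EHF (5.70 ± 0.43) was the dimmest. The prolactin receptor, PRLR, had the largest spread among receptors, at 8.01 ± 0.50. It read 8.57, 7.62, 7.79, 8.52 and 7.53, with healthy replicates 1 and 4 above the other 3 and no overlap. AKT1, a kinase downstream of insulin and prolactin, was at 11.05 ± 0.13, CISH, an inhibitor induced by STAT5, at 8.90 ± 0.15, and the nuclear receptors RARA and RXRA at 8.54 ± 0.14 and 8.29 ± 0.10. The receptors for the ovarian steroids were dim, with ESR1 at 4.05 ± 0.22 and PGR at 3.50 ± 0.20, as were GHR at 5.83 ± 0.32 and IGF1R at 5.40 ± 0.14.

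Cytosolic ribosomal proteins were the largest bright group. Of 63 measured, 60 were in the top 5% (4.99% of all genes) and 35 in the top 1% (0.994%), and the median was 12.46. The brightest were RPL10 (13.45 ± 0.22), RPS3A (13.26 ± 0.06), RPL35 (13.20 ± 0.54) and RPS3 (13.20 ± 0.19), followed by RPL13A (13.17 ± 0.32) and RPS29 (13.13 ± 0.60). RPL37 (5.08 ± 0.27) and RPS19 (6.06 ± 0.14) were the members below background. Ribosomal protein genes have many near-identical processed copies, 13 of the 63 probe sets carry a suffix that marks shared probes, and their exact order is uncertain.

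Healthy replicate 3 was low for these genes. It was the lowest array in 55 of 63 ribosomal proteins (against 21.5% of all genes) and stood apart on the low side in 36 (against 4.22%). Standing apart means a gap to the next array that exceeds Dixon's limit for 5 samples. The median difference of healthy replicate 3 from the mean of the other 4 arrays was -1.21. For each of the other arrays, where that mean includes healthy replicate 3, the same difference ran from 0.07 to 0.48. The median SD of the list was 0.55 on 5 arrays and 0.15 without healthy replicate 3. RPS21 lay furthest below on healthy replicate 3, with 11.99, 12.19, 9.73, 11.73 and 11.97. RPL36A read 11.55, 11.65, 9.27, 11.24 and 11.25, and RPL38 read 12.82, 12.88, 11.01, 12.70 and 12.80. The difference was not uniform within the ribosome, since RPS3A read 13.29, 13.33, 13.19, 13.25 and 13.23 and RPL4 read 12.95, 13.06, 13.18, 12.61 and 12.73, the latter highest on healthy replicate 3. As background, RPS21, RPL36A and RPL38 are among the smallest ribosomal proteins and RPS3A and RPL4 among the larger. A relation of the difference with size was not tested. Without healthy replicate 3, 41 ribosomal proteins were in the top 1% instead of 35.

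The respiratory chain and ATP synthase had the same pattern. Of 73 nuclear-encoded subunits, 71 were above background (against 30.7% of all genes) and 39 in the top 10% (against 9.99%). The median was 9.86. Without healthy replicate 3, all 73 were above background. ATP5F1A, the alpha subunit of the catalytic head of ATP synthase, was the brightest at 11.96 ± 0.30, followed by ATP5MG (11.72 ± 0.67), COX6A1 (11.54 ± 0.70) and ATP5MC3 (11.53 ± 0.39), and NDUFA11 (8.04 ± 0.80) was the dimmest. Healthy replicate 3 stood apart on the low side in 45 of the 73 (against 4.22% of all genes), with a median difference of -1.36. The small ATP synthase subunit ATP5ME read 9.81, 9.77, 7.54, 9.59 and 9.95, whereas ATP5F1A read 11.91, 11.93, 12.48, 11.70 and 11.79, highest on healthy replicate 3. The median SD was 0.61 on 5 arrays and 0.11 without that array, where the median over all genes was 0.15.

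Mitochondrial ribosomal proteins were dimmer, with a median of 7.81 and 23 of 66 above background (against 30.7% of all genes). MRPL9 (10.54 ± 0.17), MRPL27 (10.03 ± 0.70), MRPL53 (9.92 ± 0.17) and MRPL20 (9.75 ± 0.54) were the brightest, MRPL46 (5.96 ± 0.26) the dimmest and MRPL23 (9.48 ± 0.78) the most variable. On healthy replicate 3 they lay -0.46 from the mean of the other arrays, and 25 stood apart on the low side (against 4.22% of all genes). MRPL23 read 8.12 there and 9.70 to 10.06 on the other arrays. The median SD of the list was 0.25 on 5 arrays and 0.12 without healthy replicate 3.

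Other gene groups departed less on healthy replicate 3, in either direction. Macrophage markers were lowest there in 8 of 11 (against 21.5% of all genes), with a median difference of -0.42, and genes of MHC class I presentation in 5 of 9, with -0.26. With the arrays scaled to the hybridization controls, 5 macrophage and 3 class I genes were lowest there, with -0.375 and -0.214. After renewed quantile normalization 8 and 4 were, with -0.43 and -0.09, so the class I departure depended on the scale. Cell cycle genes were highest there in 22 of 28 (against 30.7% of all genes), with a median difference of 0.41, and cholesterol genes had one of 0.43. Over all genes, 330 lay more than 1 below the mean of the other arrays on healthy replicate 3 and 35 more than 1 above. Among the upper 50% of genes by mean and besides genes of the ribosomal and respiratory lists, those furthest below were TTR (8.39, 9.5, 5.86, 8.45 and 7.62), TIMM8B (10.44, 10.25, 8.23, 10.12 and 10.56), MGP (11.01, 11.85, 9.11, 11.22 and 10.78), ATP5MJ (10.57, 10.48, 8.33, 10.35 and 10.35), POLR2L (9.80, 9.93, 7.89, 9.92 and 10.25), OST4 (10.25, 10.15, 8.16, 10.15 and 10.35) and POLR2I (9.89, 9.78, 7.73, 9.58 and 9.90). ATP5MJ is a small ATP synthase subunit outside the respiratory list, TIMM8B imports proteins into mitochondria, OST4 belongs to oligosaccharyltransferase, and POLR2L and POLR2I are small subunits of RNA polymerase II. MGP, a matrix protein that restrains calcification, and TTR, a carrier of thyroid hormone, also varied among the other 4 animals, with SDs of 0.46 and 0.77. Of the same upper 50%, the genes furthest above were LOC524810, NDRG2, SERPINA1, IGHM, ADGRF1, QSOX1, IGCGAMMA, SELENBP1, SLC30A2 and SRPX, of which QSOX1, a sulfhydryl oxidase of the secretory pathway, read 10.78, 10.67, 12.08, 10.72 and 10.93 and SRPX read 7.55, 7.71, 8.68, 7.50 and 7.56.

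The control probe sets also set healthy replicate 3 apart. For the bacterial transcripts Dap, Lys, Phe and Thr, which are commonly added to the RNA before labelling, the difference of the 5′ from the 3′ probe sets is commonly read as a measure of how far labelling reached along the transcript. On healthy replicate 3 it was -2.18 for Dap, -1.51 for Lys, 0.03 for Phe and -1.82 for Thr. On the other 4 arrays the same differences ran from -2.67 to -2.44, -1.87 to -1.71, -0.54 to -0.39 and -2.53 to -2.35, so that healthy replicate 3 was the highest for each of the 4 controls. For bovine transcripts the same contrast was mixed. Healthy replicate 3 was the highest for the elongation factor EF1A, at 2.34 against 1.96 to 2.23, and the lowest for cyclophilin, at -1.69 against -1.60 to -1.24. It was not singled out for beta-actin and GAPDH, being -0.86 against -1.16 to -0.83 and -0.70 against -0.94 to -0.70, nor for eIF-4E, at -3.85 against -4.03 to -3.63, and GST, at 0.17 against -0.12 to 0.27. The part of these controls in the levels of RPS21, ATP5ME and the other genes was not tested.

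**Figure D3:**
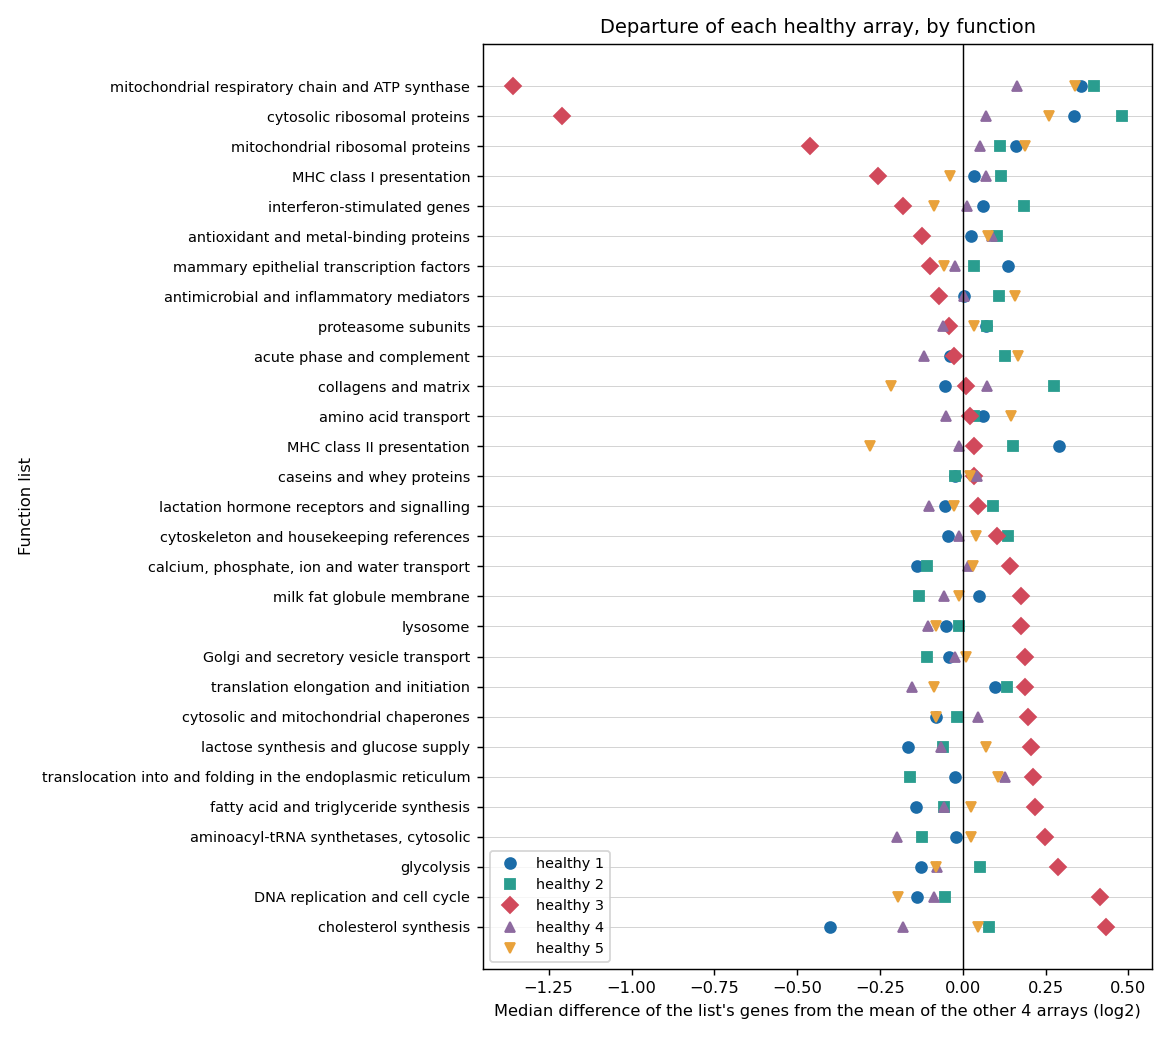
Median log2 difference of each function list from the mean of the other 4 arrays (horizontal axis), for 29 lists (vertical axis) and each healthy array as a point. Healthy replicate 3 lies at -1.36 for the respiratory chain and -1.21 for cytosolic ribosomal proteins, far to the left of the other arrays, and on the right for cholesterol synthesis and the cell cycle.

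The machinery that loads the secretory pathway was bright. Of 40 genes of translocation into and folding in the endoplasmic reticulum, 26 were in the top 10% (against 9.99% of all genes). Above background were 36 of them (against 30.7%). SSR4 (12.61 ± 0.58), part of the translocon-associated complex, P4HB (12.39 ± 0.29), a disulfide isomerase, and the signal peptidase subunits SPCS2 (12.13 ± 0.18) and SPCS1 (11.69 ± 0.37) led, and ERO1A (3.30 ± 0.12) was the dimmest. Without healthy replicate 3, HSP90B1, a chaperone of the endoplasmic reticulum, had the largest spread of the list, with 10.87, 10.99, 11.55, 12.47 and 11.31, highest on healthy replicate 4. In the same animal the cytosolic HSP90AA1 was highest too, with 11.65, 11.66, 12.19, 12.57 and 11.73. Golgi and vesicle genes had 17 of 34 in the top 10% (against 9.99% of all genes). They were among the steadiest lists, with a median SD of 0.13 (0.10 without healthy replicate 3). RAB1A (12.52 ± 0.18), TMED2 (12.04 ± 0.16), ARF4 (11.97 ± 0.18) and ARF1 (11.73 ± 0.22) led them, SAR1B (6.42 ± 0.13) was the dimmest and VAMP8 (9.52 ± 0.54) the most variable. VAMP8 read 8.58 on healthy replicate 3 and 9.57 to 9.87 on the other arrays.

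Translation factors were bright as well, with EEF1A1, the elongation factor that brings tRNA to the ribosome, at rank 8 and 13.65 ± 0.17, PABPC1 at 13.04 ± 0.25, EIF1 at 12.32 ± 0.30 and EEF1G at 12.23 ± 0.24, while EEF1A2, the form of muscle and nerve, was at 2.96 ± 0.21. EIF4B varied between animals apart from healthy replicate 3, with 10.70, 11.01, 10.96, 9.83 and 10.01, lower on healthy replicates 4 and 5. Of the 16 cytosolic aminoacyl-tRNA synthetases, 13 were above background (against 30.7% of all genes). They were led by WARS1 (11.65 ± 0.25), NARS1 (11.01 ± 0.19), TARS1 (10.44 ± 0.24) and EPRS1 (10.11 ± 0.12), and MARS1 (7.14 ± 0.20) was the dimmest. Proteasome subunits had a median of 9.49, from PSMA6 (11.49 ± 0.13) and PSMA7 (11.42 ± 0.19) down to PSMD13 (7.57 ± 0.21). Chaperones of the cytosol and mitochondria were led by HSP90AA1 (11.96 ± 0.41), HSPB1 (11.47 ± 0.50), HSP90AB1 (11.19 ± 0.14) and HSPA8 (10.92 ± 0.22).

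Of 27 antioxidant and metal-binding genes, 12 were in the top 10% (against 9.99% of all genes). The background limit was passed by 18 (against 30.7%), and 9 were not above it. The brightest were the ferritin chains FTH1 at 12.45 ± 0.29 and FTL at 11.35 ± 0.35, SOD1 at 12.09 ± 0.26 and PRDX1 at 11.49 ± 0.22. GCLC, a subunit of the enzyme that starts glutathione synthesis, was the dimmest at 4.26 ± 0.16. Thioredoxin, TXN, had the largest SD of that list, with 10.34, 10.32, 8.88, 10.91 and 10.72, lowest on healthy replicate 3. In the lysosome, the cholesterol carrier NPC2 (12.69 ± 0.08) and prosaposin, PSAP (12.09 ± 0.10), led, followed by CD63 (11.54 ± 0.34) and CTSB (11.32 ± 0.12). CTSL, a cysteine protease, read 7.72, 7.15, 7.39, 6.51 and 6.17 and was the most variable lysosomal gene.

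Of the 30 brightest genes, 3 belonged to none of the lists: TPT1 (13.12 ± 0.14), ITM2B (13.11 ± 0.14) and CDK5R1 (13.09 ± 0.39). CDK5R1 is known as a neuronal activator of the kinase CDK5, and its probe set read 13.28, 13.32, 12.40, 13.17 and 13.26, with healthy replicate 3 apart from the others. The cytoskeletal actins ACTB and ACTG1 were at 13.10 ± 0.11 and 12.97 ± 0.14. Genes often used as references differed in spread, from ACTB with an SD of 0.11, GAPDH with an SD of 0.15 and RPLP0 with an SD of 0.12 to RPS9 with an SD of 0.66 and UXT with an SD of 0.84. RPS9, RPS15A and UXT were low on healthy replicate 3, and their SDs without it were 0.29, 0.12 and 0.16. SF3A1, a splicing factor, was at 8.01 ± 0.12 with 7.91, 8.17, 8.10, 7.90 and 7.94.

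**Figure D4:**
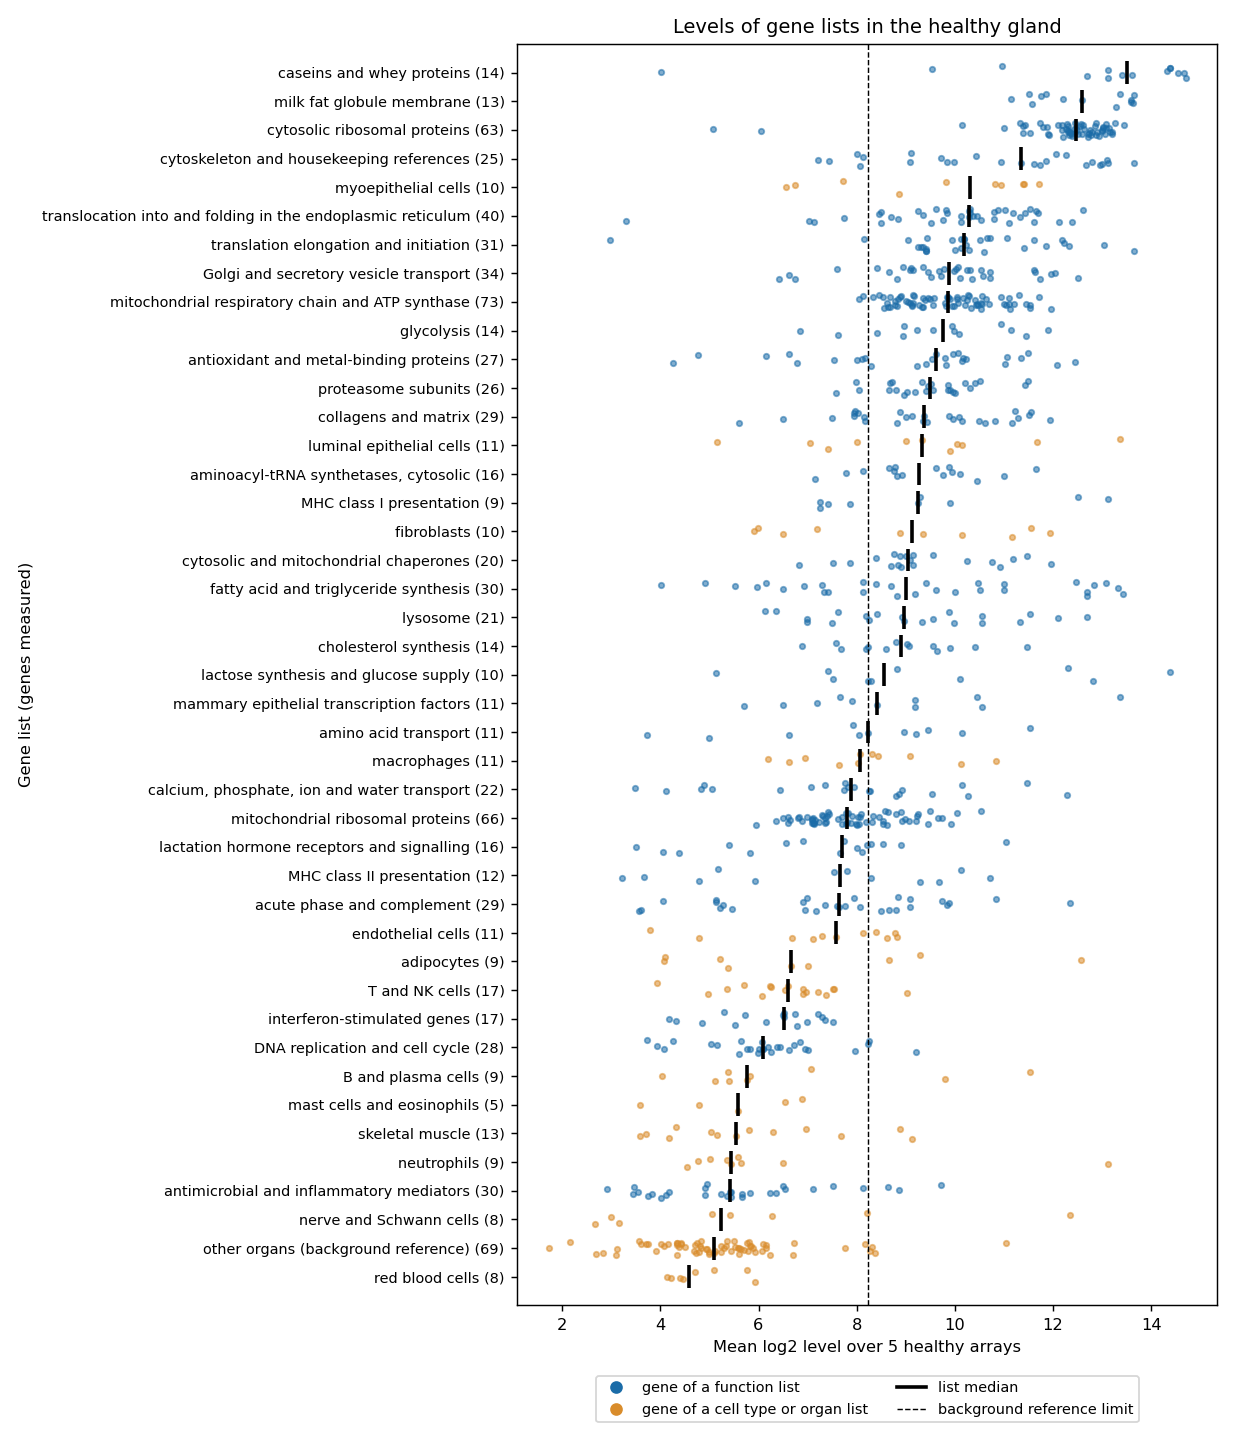
Mean log2 level over the 5 healthy arrays (horizontal axis) of each gene in the 29 function lists (blue) and 14 cell type and organ lists (orange), ordered by list median (black bar), with the number of genes measured in brackets. Caseins and whey proteins have the highest median (13.51), and red blood cells the lowest (4.58), under the dashed background limit.

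Among the cell type lists, myoepithelial and luminal markers had the highest medians. Among luminal markers, ELF5 was the brightest, then KRT19 (11.67 ± 0.49), CLDN3 (10.14 ± 0.18) and EPCAM (10.04 ± 0.05). Of the 11, 7 were above background (against 30.7% of all genes). KRT8 (5.15 ± 0.36) and KRT18 (7.04 ± 0.30), keratins of luminal cells, were not. KRT19 read 11.99, 11.95, 12.04, 11.51 and 10.88, lowest on healthy replicate 5. Of 10 myoepithelial markers, 7 were above background (against the same share of all genes). They were led by MYLK (11.72 ± 0.25), MYH11 (11.40 ± 0.32), ACTA2 (11.38 ± 0.28) and KRT5 (10.93 ± 0.29), while the oxytocin receptor OXTR was at 6.57 ± 0.18 and KRT14 at 6.74 ± 0.15. These contractile genes are also those of vascular smooth muscle.

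The myoepithelial markers were mostly highest in the same cow. Healthy replicate 2 was the highest array for 8 of the 10 (against 18.0% of all genes), with a median of 0.44 over the mean of the other arrays. Endothelial markers were highest there in 6 of 11, with a median of 0.32, and cytosolic ribosomal proteins in 57 of 63, with 0.48. For the ribosomal proteins that difference is enlarged by the low healthy replicate 3, which is among the other arrays. Their median level was 12.90 on healthy replicate 2, against 12.80, 12.53 and 12.68 on healthy replicates 1, 4 and 5. ACTA2, smooth muscle actin, read 11.48, 11.77, 11.45, 11.09 and 11.12, and CNN1, calponin, read 10.06, 10.23, 9.82, 9.55 and 9.40. Collagens and matrix genes were highest on the same array in 14 of 29 and lowest on healthy replicate 5 in 14 (against 19.4% of all genes). Scaled to the hybridization controls, 7 of the 10 myoepithelial markers stayed highest on healthy replicate 2, but 15 collagen and matrix genes were then highest on healthy replicate 4 and 9 on healthy replicate 2. COL3A1 (11.93 ± 0.21), COL1A2 (11.56 ± 0.35), COL4A1 (11.50 ± 0.29) and SPARC (11.29 ± 0.23) were the brightest of them. COL1A2 read 11.23, 11.83, 11.85, 11.73 and 11.13, lower on healthy replicates 1 and 5 than on the other 3. The part of the amount of connective tissue or muscle in each piece was not tested.

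Fat cell markers ranged widely in level. The fatty acid carrier FABP4 was at 12.57 ± 0.49. Adiponectin, ADIPOQ (4.09 ± 0.19), and leptin, LEP (4.07 ± 0.16), the defining secreted proteins of fat cells, were far below background. In all, 3 of 9 markers were above it (against 30.7% of all genes). Of 11 endothelial markers, 4 were above background (against the same share of all genes), and the median was 7.59. These were EMCN (8.82 ± 0.18), CDH5 (8.77 ± 0.20), PECAM1 (8.61 ± 0.36) and EGFL7 (8.39 ± 0.13), all a little above the limit. Blood and muscle were little seen. None of 8 red blood cell genes was above background, with HBB at 5.10 ± 0.33 and HBA at 4.13 ± 0.03, and neither was the skeletal muscle actin ACTA1 (3.70 ± 0.11), although MYH7 (9.13 ± 0.31) and CKM (8.89 ± 0.39) of that list were. The nerve list had 1 gene above background, S100B (12.35 ± 0.27), while GFAP (5.42 ± 0.16), NEFL (2.99 ± 0.17) and SOX10 (5.06 ± 0.17) were not.

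IGHM and JCHAIN were the brightest of the B and plasma cell list and its only members above background. IGHM, the heavy chain of IgM, was at 11.54 ± 0.74 and rank 201, with 11.82, 11.46, 12.62, 11.15 and 10.64. JCHAIN, which joins IgA and IgM polymers, was at 9.79 ± 0.62 with 10.15, 9.82, 10.52, 9.58 and 8.88. Outside that list, IGCGAMMA, a constant chain of IgG, was at 11.57 ± 0.66 with 11.62, 11.50, 12.55, 11.48 and 10.70. All 3 were highest on healthy replicate 3 and lowest on healthy replicate 5. The B cell genes MS4A1 (5.76 ± 0.23) and CD79A (5.40 ± 0.13) were below background. PIGR, which carries IgA and IgM into milk, was at 11.51 ± 0.26.

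Markers of other immune cells differed in level. Of 17 T and NK cell markers, 1 was above background (against 30.7% of all genes), ZAP70 (9.02 ± 0.46), while CD3E was at 7.38 ± 0.14 and CD8A at 6.60 ± 0.29. Macrophage markers had a median of 8.06 and included CD14 (10.84 ± 0.32), CTSS (10.12 ± 0.28), C1QA (9.08 ± 0.57) and MSR1 (8.43 ± 0.48). Of the 11, 5 were above background (against the same share of all genes), and most were lowest on healthy replicate 3 as given above. Among neutrophil genes LTF alone passed the limit, and it is also made by mammary epithelium. S100A8 (5.45 ± 0.40), S100A9 (6.51 ± 0.19), ELANE (4.76 ± 0.11) and CXCR1 (4.55 ± 0.20) did not.

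Acute phase and complement genes covered a wide range of levels. Complement C3 was at 12.34 ± 0.60 with 12.30, 13.26, 12.50, 11.90 and 11.73, ranging 2.88-fold from healthy replicate 5 to healthy replicate 2. CD14, a receptor for lipopolysaccharide that is also found in milk, was at 10.84 ± 0.32, FGG, the gamma chain of fibrinogen, at 9.87 ± 0.42 and clusterin, CLU, at 9.84 ± 0.20. HP, haptoglobin, was at 5.13 ± 0.26, and ORM1, the dimmest acute phase gene, at 3.56 ± 0.18. SAA3, the mammary serum amyloid, read 8.10, 7.70, 7.30, 7.56 and 9.03, with healthy replicate 5 the only animal above the background limit. LBP, which hands lipopolysaccharide to CD14, read 9.14, 7.61, 9.11, 9.10 and 9.25, so that healthy replicate 2 stood apart below the other 4. Over the 29 acute phase and complement genes, 7 had an SD over 0.5 (against 5.34% of all genes), and 5 did so without healthy replicate 3 (against 2.32%).

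Of 30 antimicrobial and inflammatory mediators, 3 were above background (against 30.7% of all genes). CXCL14, a constitutive chemokine, led at 9.71 ± 0.39, then CCL26 (8.87 ± 0.62), TLR2 (8.64 ± 0.46) and TLR4 (8.14 ± 0.09), the last just under the limit. The acute cytokines and neutrophil attractants were among the dimmest genes ranked, with TNF at 5.24 ± 0.17, IL1B at 4.95 ± 0.18, IL6 at 3.44 ± 0.15, CXCL8 at 3.54 ± 0.44 and CXCL5 at 2.90 ± 0.73. The epithelial defensins TAP and LAP were at 5.82 ± 0.15 and 6.36 ± 0.26. TLR2 read 8.64, 7.88, 9.07, 8.67 and 8.94, lowest on healthy replicate 2. No interferon-stimulated gene of 17 was above background. ISG15 was the brightest at 7.53 ± 0.38, which is above the median of 7.30 over all gene means.

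The MHC genes included some of the most variable genes. BOLA, a class I heavy chain, was at 12.52 ± 0.25, and class II was led by BOLA-DRA (10.71 ± 0.28), CTSS (10.12 ± 0.28) and BOLA-DRB3 (9.67 ± 0.27). BOLA-DQA2 read 9.93, 9.72, 10.02, 9.75 and 7.01, and BOLA-DQA1 read 8.50, 7.82, 8.05, 8.44 and 6.23, both lowest on healthy replicate 5. A class I gene named BOLA-N read 8.91, 13.04, 8.61, 9.08 and 11.61, a 21.6-fold range, with healthy replicates 2 and 5 above the other 3. MHC genes are known to be highly polymorphic between animals.

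Cell cycle genes were dim. Of 28 genes of DNA replication and the cell cycle, 2 were above background (against 30.7% of all genes), PCNA (9.22 ± 0.09) and CDKN1A (8.25 ± 0.43). The mitotic genes CCNB1 (3.94 ± 0.27) and BUB1 (3.72 ± 0.54) were near the bottom. BIRC5, an inhibitor of apoptosis in mitosis, read 5.52, 5.69, 6.92, 5.35 and 5.33, apart and high on healthy replicate 3.

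Beyond the lists, the spread between the healthy cows was examined over the upper 50% of genes by mean. Over all genes, 489 had an SD over 0.5 and 212 did so without healthy replicate 3, which was the farthest array in 65.6% of the former. With 5 arrays the excess lay in bright genes, since 15.28% of the brightest 10% of genes had such an SD against 2.18% of the dimmest, and without healthy replicate 3 these shares were 2.73% and 2.29%. A lone array stood apart from the other 4 in 838 genes (9.15%), most often healthy replicate 3, on the low side in 386 and on the high side in 149.

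The genes that differed most between animals did so with and without healthy replicate 3. LOC100847724 read 10.75, 6.44, 6.80, 6.08 and 9.79, with healthy replicates 1 and 5 above the other 3 and no overlap. LOC783399 read 5.12, 10.31, 8.45, 9.37 and 7.80, lowest on healthy replicate 1. PRSS2, a trypsin gene of the organ background list, read 8.73, 4.95, 8.36, 9.04 and 7.78, with healthy replicate 2 far below the rest, and PHYHIPL read 8.75, 9.78, 7.37, 7.43 and 5.90. HPGD, which degrades prostaglandins, read 10.86, 10.54, 9.60, 7.84 and 7.96, an 8.12-fold range in which healthy replicates 4 and 5 were the lowest. ZBTB16, a transcription factor induced by glucocorticoids, read 7.96, 8.15, 7.99, 7.86 and 5.29, and healthy replicate 5 stood apart. DLK1, a Notch-like regulator of fat cell formation, read 8.63, 8.36, 8.82, 6.31 and 8.25, and healthy replicate 4 stood apart.

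Enzymes and transporters made up the rest of this group. AKR1C4, an aldo-keto reductase, read 9.47, 10.69, 8.05, 8.22 and 8.58, PSPH, the last enzyme of serine synthesis, 9.01, 6.50, 8.07, 7.70 and 6.79, and the nucleotide carrier SLC17A9 7.09, 6.63, 8.03, 8.61 and 8.60. Of the epithelial sodium channel, the alpha subunit SCNN1A read 7.49, 9.22, 8.54, 9.53 and 9.35 and the gamma subunit SCNN1G 8.30, 9.45, 8.69, 7.42 and 7.48. The subunits did not follow each other, as SCNN1A was lowest on healthy replicate 1 and SCNN1G on healthy replicate 4.

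**Figure D5:**
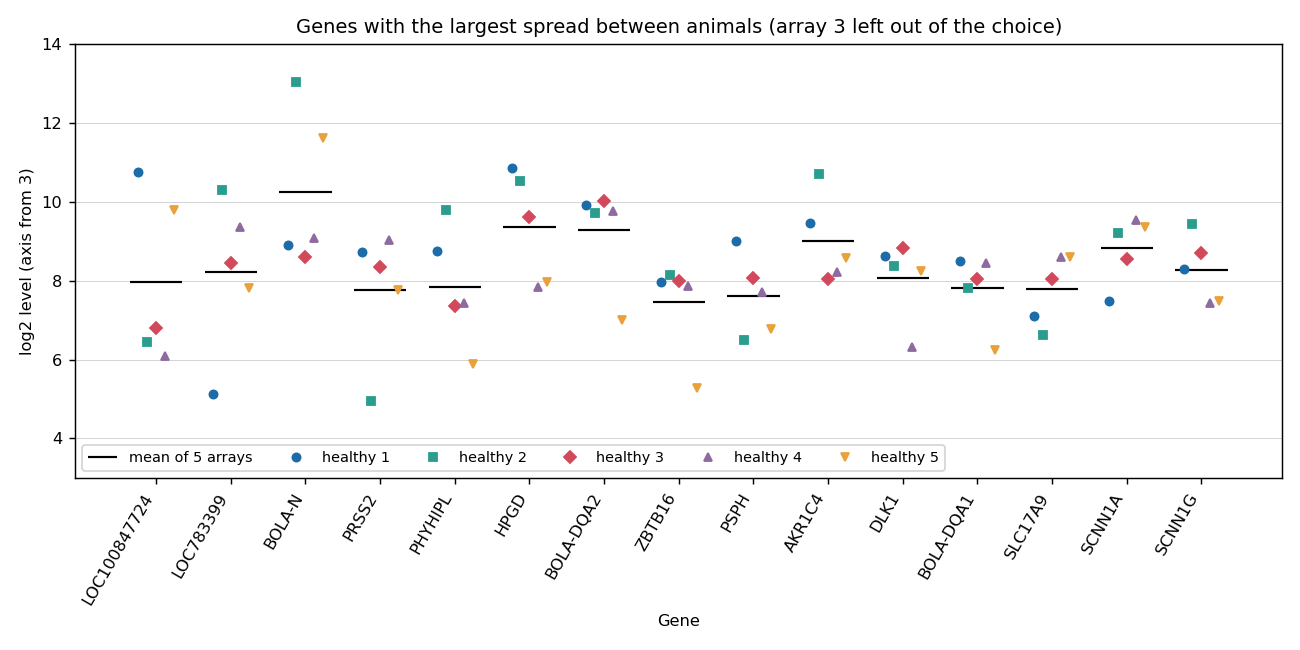
log2 level (vertical axis, starting at 3) of the 15 genes of the upper 50% with the largest SD over the 4 animals without healthy replicate 3 (horizontal axis), on each of the 5 healthy arrays, with the mean of 5 as a bar. Which animal departs differs from gene to gene, for example healthy replicate 5 at 5.29 for ZBTB16 and healthy replicate 4 at 6.31 for DLK1.

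The steadiest genes of the upper 50% were SUPT6H (7.66 ± 0.02), MED15 (8.66 ± 0.02), MTMR4 (8.86 ± 0.02), CSN3, SHARPIN (7.50 ± 0.02), LALBA, MTSS1 (10.49 ± 0.03), GJB5 (7.72 ± 0.03), DHPS (8.20 ± 0.03) and SF3B4 (9.14 ± 0.03). Of these, SUPT6H, SHARPIN, GJB5 and DHPS were not above the background limit.

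The genes that the study measured by quantitative PCR covered the whole range in the healthy gland. LPL and ACSS2 were among the brightest 91 genes, at ranks 32 and 62. ALOX15, a lipoxygenase, was at 10.70 ± 0.37 with 11.06, 10.18, 11.06, 10.60 and 10.59, and HPGD at 9.36 ± 1.41. LBP, AQP3 (8.86 ± 0.23) and PIR (8.47 ± 0.60) lay a little above the background limit. MT2A (8.16 ± 0.10), SAA3, PTX3 (7.0 ± 0.66), ADHFE1 (6.85 ± 0.21), THRSP, S100A8 and HP were below it. PIR, an iron-binding nuclear protein, read 9.44, 8.61, 8.15, 7.87 and 8.31, highest on healthy replicate 1, and PTX3, a soluble pattern receptor, read 7.63, 7.69, 6.27, 6.42 and 6.96, higher on healthy replicates 1 and 2.

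Most of the brightest genes stayed at the top without healthy replicate 3, but ranks moved. Without it, 26 of the 30 brightest genes and 85 of the brightest 91 were shared, and the 3 brightest were the same genes, CSN2, PAEP and CSN3. With any other array left out, 27 to 29 of the 30 were shared. The ranks that follow compare all 5 arrays with those without healthy replicate 3. RPL37A moved from rank 37 to 18 and RPL38 from 90 to 64, whereas ITM2B moved from 28 to 40 and LTF from 26 to 45.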

How the data were processed

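Whole udder tissue of 5 healthy cows was hybridised to 5 arrays. The deposited values are log2 RMA values per probe set, made by the authors from the scanned arrays of the whole series, and no version of RMA is given in the sources used here. The array control sets (112) were left out of the ranking. Of the remaining 24016 probe sets, 13292 had a single gene symbol, 86 had several and 10638 had none in the platform annotation. Symbols were updated through gene IDs from the RefSeq gene table, which matched 13263 of the former. No sequence or coordinate was used, and no group comparison or test was made.

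Each gene was represented by its brightest probe set by mean (2913 genes had more than 1), ranked by the mean over 5 arrays, and its spread given as the SD. An array was said to stand apart from the other 4 by Dixon's criterion. The calculations used Python 3.11.15 with numpy 2.4.6 and pandas 2.3.3 and were tested on simulated data. Precision is limited by the number of arrays. The labels give replicate numbers, and that the 5 healthy samples are separate animals is per the study's description.

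The genes named were the 30 brightest, in each list the 4 brightest, the least bright and the most variable, the 15 largest and 10 smallest SDs of the upper 50% of genes, the 15 largest SDs without healthy replicate 3, the 10 furthest above and below the other arrays on healthy replicate 3, and 14 genes measured by PCR in the study with SF3A1. A few further list members were named after their values were seen. The lists and their members were chosen with earlier results of these data known. Alternatives were leaving out each array, the mean of all probe sets of a gene, only sets without a shared-probe suffix, medians, linear means, scaling to hybridization controls, renewed quantile normalization and other limits.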

Additional observations from a re-analysis of the deposited data

Results flagged for a closer look

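A gap of 1 array to the next that exceeds Dixon's limit for 5 samples was found for 54 of the 279 genes named here and for 3 of 43 list medians. Such a gap was found in 9.15% of all genes, and chance alone gives it in about 1 of 20 groups. The named genes were partly chosen for a large spread or for their distance on healthy replicate 3, so nothing is read from their higher share. In 45 of these genes the array was healthy replicate 3, on the low side in 34 and on the high side in 11. The other arrays accounted for 9 genes.

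The list medians that stood apart were those of the cytosolic ribosomal proteins, 11.56 on healthy replicate 3 against 12.53 to 12.90 on the others, the respiratory chain and ATP synthase, 9.10 on healthy replicate 3 against 9.96 to 10.20, and the nerve and Schwann cell list, 5.51 on healthy replicate 5 against 5.13 to 5.23.

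Ribosomal proteins that stood apart low on healthy replicate 3 were MRPL20 8.81 (others 9.83 to 10.08), MRPL23 8.12 (others 9.70 to 10.06), MRPL27 8.79 (others 10.28 to 10.38), MRPL46 5.50 (others 6.00 to 6.14), RPL35 12.24 (others 13.32 to 13.54) and RPL36A 9.27 (others 11.24 to 11.65). In the same direction there were RPL37A 11.80 (others 13.14 to 13.47), RPL38 11.01 (others 12.70 to 12.88), RPS15A 11.74 (others 12.90 to 13.19), RPS21 9.73 (others 11.73 to 12.19) and RPS29 12.07 (others 13.33 to 13.48). Mitochondrial genes that did so were ATP5MC3 10.84 (others 11.65 to 11.76), ATP5ME 7.54 (others 9.59 to 9.95), ATP5MG 10.54 (others 11.85 to 12.11), ATP5MJ 8.33 (others 10.35 to 10.57), COX6A1 10.30 (others 11.68 to 11.93) and NDUFA11 6.63 (others 8.26 to 8.57). In the same direction there was TIMM8B 8.23 (others 10.12 to 10.56).

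Other genes low on healthy replicate 3 were CCL26 7.79 (others 8.92 to 9.31), CD63 10.95 (others 11.55 to 11.75), CDK5R1 12.40 (others 13.17 to 13.32), CST3 10.20 (others 11.02 to 11.34), EIF1 11.78 (others 12.39 to 12.53) and FTH1 11.94 (others 12.52 to 12.62). In the same direction there were FTL 10.73 (others 11.41 to 11.62), OST4 8.16 (others 10.15 to 10.35), POLR2I 7.73 (others 9.58 to 9.90), POLR2L 7.89 (others 9.80 to 10.25), POMC 11.32 (others 12.61 to 13.02) and PRDX1 11.09 (others 11.54 to 11.63). In the same direction there were SLC6A14 3.39 (others 3.78 to 3.86), SSR4 11.58 (others 12.80 to 12.95), UXT 5.73 (others 7.34 to 7.69) and VAMP8 8.58 (others 9.57 to 9.87).

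Genes that stood apart high on healthy replicate 3 were AKT1 11.27 (others 10.95 to 11.03), ARF1 12.12 (others 11.58 to 11.69), BIRC5 6.92 (others 5.33 to 5.69), CTSB 11.52 (others 11.24 to 11.30), GHR 6.38 (others 5.63 to 5.83) and MSMO1 11.90 (others 11.30 to 11.43). In the same direction there were NARS1 11.33 (others 10.87 to 10.99), PSMD13 7.94 (others 7.43 to 7.52), QSOX1 12.08 (others 10.67 to 10.93), SCD 13.67 (others 13.36 to 13.40) and SRPX 8.68 (others 7.50 to 7.71).

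On healthy replicate 2, standing apart high, the values were COL4A1 12 (others 11.26 to 11.47) and EMCN 9.13 (others 8.72 to 8.77). On healthy replicate 2, standing apart low, the value was LBP 7.61 (others 9.10 to 9.25). On healthy replicate 4, standing apart low, the value was DLK1 6.31 (others 8.25 to 8.82). On healthy replicate 5, standing apart high, the values were GFAP 5.71 (others 5.32 to 5.39) and HP 5.57 (others 4.89 to 5.08). On healthy replicate 5, standing apart low, the values were BOLA-DQA2 7.01 (others 9.72 to 10.02), CTSS 9.61 (others 10.20 to 10.28) and ZBTB16 5.29 (others 7.86 to 8.15). No cause of these departures was tested.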

How the results depend on the processing

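No paired analysis was possible because no groups were compared. The number of genes above background depended most on its definition: 2810 as given, 5644 with the limit at the 90th percentile of the organ list, 319 with the limit at its highest member and 5179 with the mean of all probe sets of a gene. Genes with an SD over 0.5 numbered 489, between 212 and 563 when 1 array was left out, the lowest without healthy replicate 3, and 24 had an SD over 1. Genes with an array standing apart numbered 838, and 503 to 737 with 1 array left out, again lowest without healthy replicate 3 (with 4 arrays the limit is stricter). Healthy replicate 3 was the farthest array in 32.06% of genes and in 35.14% to 38.61% with another array left out, but in 21.43% after scaling to the hybridization controls, where healthy replicate 4 was farther. The other counts stayed within 1.5 times of their value. Caseins and whey proteins in the top 1% ranged from 9 to 11, ribosomal proteins in the top 5% from 48 to 60, milk fat globule genes in the top 10% from 11 to 13, and shared genes among the top 30 from 23 to 30. Means of the named genes moved by their own SD or more in 94 of 3051 recalculations, 79 of them with the mean of all probe sets and 15 without sets of shared probes. Median ranks of lists moved beyond their spread between arrays in 35 of 473 recalculations, under the same settings only. With the mean of all probe sets 26 of the 43 lists moved, and without sets of shared probes 9 of 43 did. The level of many lists therefore depended on taking the brightest probe set. The brightness of each probe set, not only the abundance of its transcript, sets these ranks.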

Other observations

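Some of the brightest signals of the healthy gland carry no gene name here. Of the 100 brightest probe sets besides controls, 16 had no symbol, and the brightest of these stood at place 17 among all sets, with a mean of 13.41 and an SD of 0.10 (n = 5).

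Genes named for other tissues were found at high ranks. POMC, the pituitary precursor of corticotropin, was at 12.51 ± 0.68 and rank 80, with 12.81, 13.02, 11.32, 12.61 and 12.82. It had 2 probe sets, and the other read 7.23. S100B, known from nerve and fat, was at 12.35 ± 0.27 and rank 97. AMELX, the enamel protein amelogenin and the brightest gene of the organ background list, was at 11.03 ± 0.09, and its 6 probe sets ranged down to 1.91. CSF2RB, a receptor chain of blood cell growth factors, was at 12.86 ± 0.21 and rank 48, and GP2, a membrane glycoprotein known from the pancreas, at 12.89 ± 0.20 and rank 45. RPS4Y1, named for a Y-linked ribosomal protein, was at 12.65 ± 0.19 in these cows, and since a closely related X-linked copy exists its source is uncertain. These genes were chosen after their values were seen.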
